A study of Mus musculus with 2 samples.

Results

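A row of 9 imprinted miRNA genes, out of the 1973 miRNA genes counted in the series, lies along 30.9 kb of mouse chromosome 12, from inside the non-coding RNA gene Meg3 to the coding part of the protein-coding gene Rtl1. The rule that chose them uses gene symbol and position and no measured value, and it was set with earlier results of these data known. The genes are Mir770, Mir493, Mir337, Mir540, Mir665, Mir431, Mir433, Mir127 and Mir434. All 9 were measured in both libraries of the series, and all 9 reached the detection minimum of 10 counts in each. Of all 1973 genes 305 did so. The libraries hold RNA shorter than 30 nucleotides from the whole stomach of newborn B6NCrl mice (postnatal age 0 days), 1 stomach per library. The labels name pup 1 and pup 2 of the same dam, carry 1 donor entry for both, and state no treatment, no altered allele and no sex. The series therefore has 1 group of 2 littermates and no contrast between conditions, so p-values between the pups compare these libraries only.

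The Dlk1-Dio3 region is an imprinted domain in which the protein-coding genes, Rtl1 among them, are expressed from the paternal chromosome, while the non-coding RNAs and miRNAs are expressed from the maternal one. Rtl1 is a gene derived from a retrotransposon and is needed for normal development of the placenta. The miRNAs transcribed across Rtl1 on the other strand are known to match its messenger RNA perfectly and to direct its cleavage. The counts do not separate the parental alleles and hold no measurement of Rtl1 or Meg3 RNA.

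By position the genes form 3 groups. Mir770 (GRCm38, chr12:109563692-109563785, plus strand, as for all 9) lies inside Meg3. It falls in an intron of 3 of the 4 Meg3 transcripts that span it and inside an exon of the other. Mir493 (chr12:109580233-109580315), Mir337 (chr12:109585789-109585885), Mir540 (chr12:109586080-109586146) and Mir665 (chr12:109586314-109586407) lie between Meg3 and Rtl1, outside both annotated genes. The last 3 of these share a stretch of 619 nt. Mir431 (chr12:109590447-109590537), Mir433 (chr12:109591715-109591838), Mir127 (chr12:109592846-109592915) and Mir434 (chr12:109594506-109594599) lie within 4.15 kb, opposite to Rtl1, and each hairpin falls wholly inside the Rtl1 coding exon. Positions of all 9 hairpins were the same in GENCODE and RefSeq.

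The mature sequences of the 4 genes opposite Rtl1, the most abundant group below, are given from RefSeq (GRCm38.p6), 5′ to 3′, with the seed (bases 2 to 8, which choose most targets) in capitals.
miR-431-5p: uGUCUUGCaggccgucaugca
miR-431-3p: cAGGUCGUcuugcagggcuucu
miR-433-5p: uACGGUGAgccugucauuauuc
miR-433-3p: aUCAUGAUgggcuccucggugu
miR-127-5p: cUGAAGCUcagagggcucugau
miR-127-3p: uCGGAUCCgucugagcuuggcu
miR-434-5p: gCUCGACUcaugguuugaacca
miR-434-3p: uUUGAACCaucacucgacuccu

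The 2 arms of Mir337, the most abundant gene between Meg3 and Rtl1, and the arm of Mir540 that shares its seed with another gene are shown in the same way.
miR-337-5p: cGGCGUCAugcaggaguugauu
miR-337-3p: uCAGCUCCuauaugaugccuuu
miR-540-3p: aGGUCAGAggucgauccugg

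No seed was shared among the 9 genes, so they do not form a seed family. Of their 18 mature sequences, 1 had a seed that occurs in another mouse gene of the RefSeq table, which holds 1738 mature sequences. That seed, of miR-540-3p, is also that of miR-6915-5p, and Mir6915 was not detected. None of the 9 hairpins had a stretch of 20 nt in common with another, non-overlapping miRNA hairpin. Perfectly matching reads of that length could thus not be divided between them and another such hairpin. Matches with mismatches or to the other strand were not checked. The tables count reads per gene, and the counts of the 5p and 3p arms of a hairpin cannot be told apart.

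All 8 mature sequences of the genes opposite Rtl1 had a perfect full-length complement in the Rtl1 transcript, and in no other annotated transcript apart from miRNA hairpins. None of the 10 mature sequences of the other 5 genes had such a complement in any of these transcripts. In Rtl1 the sites lie along the coding sequence of 5232 bases in the reverse order of the miRNA genes. The sites of miR-434 fall within bases 818 to 876, those of miR-127 within 2495 to 2550, those of miR-433 within 3602 to 3675 and those of miR-431 within 4881 to 4945, counted from the start codon. The Rtl1 sites of the 2 most abundant genes are shown for their 3p and 5p arm, as DNA, 5′ to 3′ on the Rtl1 strand.
Rtl1 site of miR-127-3p: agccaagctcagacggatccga
Rtl1 site of miR-431-5p: tgcatgacggcctgcaagaca
The site of miR-127-3p begins at coding base 2495 and that of miR-431-5p at coding base 4925. These matches are a description of sequence, and no effect on Rtl1 was measured.

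Mir127, whose loss disturbs the fetal vessels of the placenta, was the highest of the 9. It had 28209 counts in pup 1 and 21854 in pup 2. Per 1000000 counts on the genes' own strand (CPM), these were 6320 in pup 1 and 6326 in pup 2, with exact 95% intervals of 6247 to 6394 and 6243 to 6410. By this scaling the pups differed by less than the counting error of either. The mean of 6323 ± 4.12 CPM (SD, n = 2) thus has an SD smaller than counting error alone would give on average. This SD depends on the scaling. With the TMM scaling used below between the pups, the level was 6327 ± 315 CPM, and with DESeq2 size factors 6329 ± 390 CPM. Mir127 ranked 26 of the 305 detected miRNA genes. Among genes outside the imprinted region, Mir17 (7327 ± 1042 CPM) came next above it and Mir145a, a smooth muscle gene, next below (5703 ± 221 CPM). Mir145a was also nearest to it over both libraries, with summed absolute log2 CPM differences of 0.30, followed by Mir17 (0.41) and the endocrine gene Mir375 (0.46). With 2 libraries this likeness is one of level only.

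Mir431, which is known to act in nerve and muscle regeneration, had 10703 counts in pup 1 and 6752 in pup 2, or 2398 and 1954 CPM. The counting intervals of the pups, 2353 to 2444 CPM and 1908 to 2002 CPM, did not overlap. Its mean was 2176 ± 314 CPM, at rank 52. Mir434 had 6360 and 4206 counts, or 1425 and 1217 CPM, also with pup 1 higher and with intervals that did not overlap (1390 to 1460 and 1181 to 1255 CPM). Its mean of 1321 ± 147 CPM put it at rank 74. Mir433 was the lowest of the genes opposite Rtl1, with 2204 and 1728 counts. Its levels of 494 and 500.2 CPM had overlapping intervals, and the mean was 497 ± 4.52 CPM at rank 111. With TMM scaling this SD was 20.6 CPM. Neighbours of Mir433 in level outside the region were Mir194-1 (499 ± 75.6 CPM) above and Mir503 (476 ± 49.1 CPM) below, both within the spread between pups.

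Mir337 was the highest gene between Meg3 and Rtl1, at 3691 counts in pup 1 and 2848 in pup 2. These made 827 and 824 CPM, a mean of 826 ± 1.81 CPM, rank 90. The counting intervals, 801 to 854 and 794 to 855 CPM, were far wider than this SD. With TMM scaling the SD of Mir337 was 43.5 CPM. Mir540 lies 194 nt downstream of Mir337, and had 867 and 597 counts, or 194 and 173 CPM (mean 184 ± 15.2 CPM, rank 146). Mir665, another 167 nt downstream, had 565 and 473 counts, or 127 and 137 CPM (mean 132 ± 7.30 CPM, rank 164). Within these 619 nt the level of Mir337 thus exceeded that of Mir665 6.27-fold, by 2.65 ± 0.08 (SD, n = 2) on the log2 scale. Mir493 stood 5473 nt upstream of Mir337 and was the lowest of all 9, with 90 and 85 counts. Its levels of 20.2 and 24.6 CPM gave a mean of 22.4 ± 3.14 CPM, at rank 234 of 305. Mir770, inside Meg3, had 256 and 242 counts, or 57.4 and 70.1 CPM. Its mean was 63.7 ± 8.98 CPM, at rank 194, and the counting intervals of the pups overlapped (50.5 to 64.8 and 61.5 to 79.5 CPM).

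**Figure D1:**
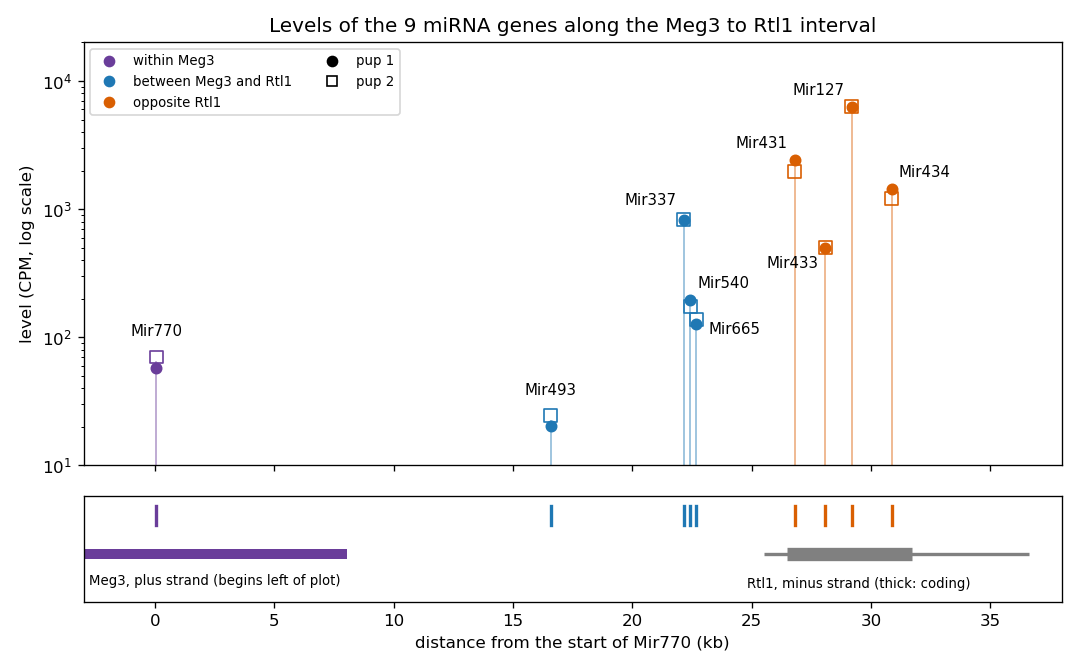
Level of each miRNA gene in CPM (log scale) against its distance in kb from the start of Mir770, with filled circles for pup 1, open squares for pup 2, and the Meg3 and Rtl1 genes drawn below. The 4 genes opposite Rtl1 run from 497 to 6323 CPM on average, while Mir770 and Mir493 at the left lie under 100 CPM.

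The order by level was Mir127, Mir431, Mir434, Mir337, Mir433, Mir540, Mir665, Mir770 and Mir493. For all 8 neighbouring pairs in this order the mean log2 ratio exceeded its SD over the pups, and both pups gave the same order, as was the case for all 36 pairs. With 2 libraries the smallest two-sided p that an exact permutation test allows is 0.5, so each ratio is compared with its SD and has no p. The narrowest step was from Mir540 to Mir665, 1.39-fold (0.48 ± 0.20 on the log2 scale). The widest was from Mir127 to Mir431, 2.92-fold (1.55 ± 0.21). From Mir127 to Mir493 the level fell 284-fold (8.15 ± 0.20), between genes on the same strand and 12.6 kb apart. In the plot of rank against level, 4 of the 9 genes were among the 100 most abundant of the 305 detected, not far from the share that this cut takes of all detected genes.

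**Figure D2:**
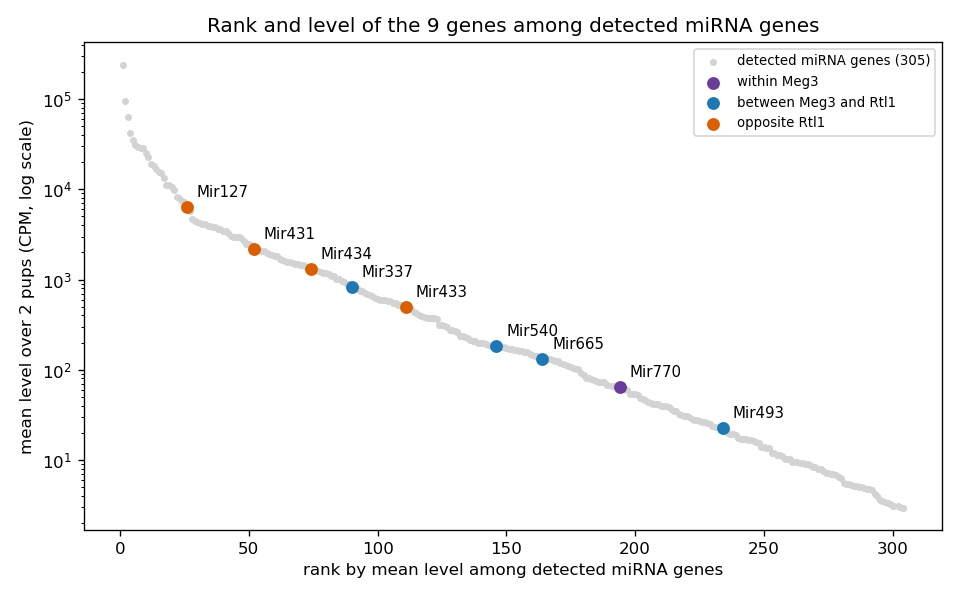
Mean level over the 2 pups in CPM (log scale) against rank for the 305 detected miRNA genes in grey, with the 9 genes in colour by position. They spread from rank 26 (Mir127) to rank 234 (Mir493).

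Together the 9 genes held 1.19% of own-strand counts in pup 1 and 1.12% in pup 2, with exact 95% intervals of 1.18% to 1.20% and 1.11% to 1.13%, and a mean of 1.15% ± 0.0449. The 4 genes opposite Rtl1 held 1.03% ± 0.0452 of all counts. The 4 between Meg3 and Rtl1 held 0.116% ± 0.000653, and Mir770 held 0.00637% ± 0.000898. For the 4 between Meg3 and Rtl1 the counting intervals, 0.114% to 0.120% and 0.112% to 0.120%, were far wider than the SD. The genes opposite Rtl1 exceeded those between Meg3 and Rtl1 8.86-fold, by 3.19 on the log2 scale in pup 1 and 3.11 in pup 2 (3.15 ± 0.06). Without Mir127 the log2 difference was 1.78 ± 0.16, so that the direction does not rest on this gene but the size does. Levels of the groups overlapped gene by gene, since Mir337 stood above Mir433 1.66-fold (0.73 ± 0.02 on the log2 scale). Within the summed counts of the 9, Mir127 made up 53.3% in pup 1 and 56.3% in pup 2. Mir431 made up 20.2% and 17.4%, Mir434 12.01% and 10.8%, and Mir337 6.97% and 7.34%.

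**Figure D3:**
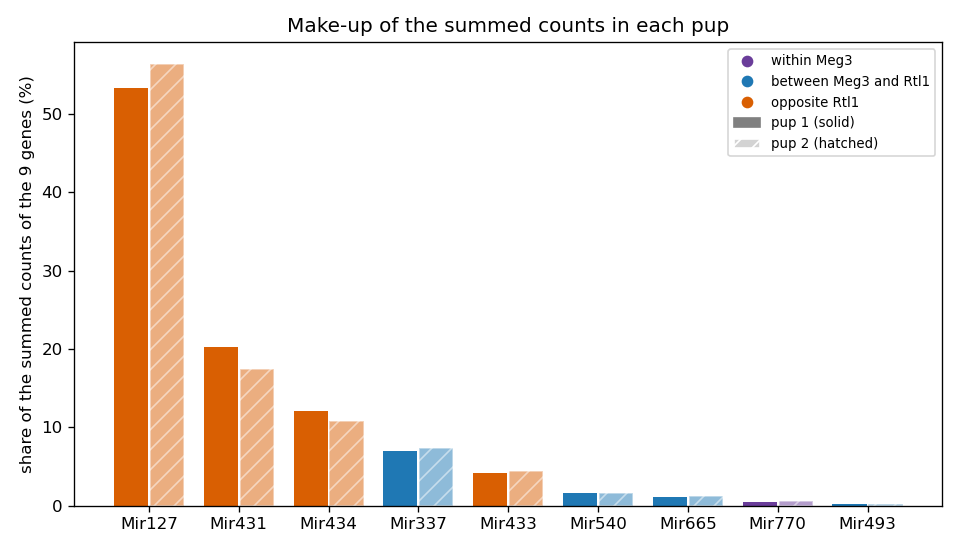
Share of each gene in the summed counts of the 9 genes (%), with solid bars for pup 1 and hatched bars for pup 2, in order of level. Mir127 takes over 50% in both pups, and Mir431 and Mir434 take a larger share in pup 1 than in pup 2.

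Of the other miRNA genes in and beside this interval, 2 were detected, Mir673 and Mir3071, and 4 were not. Mir673, just past the end of Meg3, stood at 61.6 ± 0.915 CPM, close to Mir770. Mir3070a had 6 counts in pup 1 and 2 in pup 2, and Mir3070b had 1 and 0, but these 2 hairpins share a stretch with each other, so their levels cannot be read from these counts. Mir432, also opposite Rtl1, had 0 counts in both libraries, which allows up to 0.672 CPM in pup 1 and 0.868 CPM in pup 2. Mir1906-1, inside Meg3, had 0 counts as well, and shares a stretch with another hairpin. The identifier named Mir3071 had 1727 and 1388 counts on its own strand (394 ± 10.5 CPM). Its record changed version between the annotation used for counting and the one used for names, where it lies on the Rtl1 strand facing Mir136, and which of these genes the reads came from cannot be told from the tables.

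Beside these, the longer miRNA cluster beyond Rtl1 held most counts of the region. The other 43 miRNA genes of the Dlk1-Dio3 region held 2.83% ± 0.117 of own-strand counts, with 34 detected. The 9 genes made up 28.9% of the region's counts in pup 1 and 29.0% in pup 2, and stood below the rest of the region by -1.30 in pup 1 and -1.29 in pup 2 on the log2 scale. Their proportion to the rest was thus nearly the same in both littermates, with a log2 SD of 0.0035, or 0.0658 without Mir127. Its value depends on which genes are counted: the log2 difference was -0.51 without genes that share a stretch of 20 nt, -0.82 without Mir411, -2.44 without Mir127, and -1.58 when 4 genes beyond Rtl1 that are counted opposite to another record were credited to the region. Of the single genes beyond Rtl1, Mir411 stood at 7979 ± 399 CPM, above Mir127, and Mir379 (4247 ± 199), Mir487b (3668 ± 317) and Mir541 (2098 ± 197 CPM) followed. Mir411 and Mir487b have hairpins with a stretch in common with others, so some of their reads can be missing. The median of the 9 genes was 497 CPM, that of the 34 other detected genes 171 CPM, and that of all 305 detected genes 166 CPM.

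Differences between the littermates were tested gene by gene with a two-sided exact binomial test on TMM-scaled library sizes, Benjamini-Hochberg adjustment over all 305 detected genes and a minimum ratio of 1.5. Of the 9 genes 0 were called, and over all detected genes 2.95% were called. At an unadjusted p under 0.05, 5 of the 9 passed the exact binomial test, beside 55.4% of all detected genes. In edgeR's exact test with a common dispersion 0 of the 9 were called, beside 0.328% of all detected genes. There 0 of the 9 had an unadjusted p under 0.05, beside 5.25%. Its dispersion was estimated from these same 2 libraries, taken as replicates. The difference between the pups is thus part of the assumed spread, and few calls in this test are not a separate check. In the exact binomial test 5 of the 9 genes reached an adjusted p under 0.05 with no minimum ratio, in either direction. Over all detected genes 52.1% did, so this share is close to the background. All 5 of these were higher in pup 1, a direction in which 27.9% of all detected genes passed. They were Mir431, Mir434, Mir540, Mir337 and Mir127. With scaling by total counts, an alternative chosen after seeing the data, 2 of the 9 reached an adjusted p under 0.05 with no minimum ratio, Mir431 and Mir434, beside 47.9% of all detected genes. In the same exact binomial test Mir770, higher in pup 2, then had an adjusted p of 0.055. Mir540 had 0.059, and Mir337 and Mir127 each had 0.967.

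With TMM scaling Mir431 had the largest difference of the 9 between the pups, a log2 ratio of pup 1 over pup 2 of 0.40 (exact 95% interval 0.35 to 0.44; adjusted p = 2.0e-70, exact binomial test, edgeR adjusted p = 1.0). Mir434 followed at 0.33 (0.27 to 0.39; adjusted p = 4.7e-30, exact binomial test). Mir540 stood at 0.27 (0.12 to 0.42; adjusted p = 0.0011), Mir337 at 0.11 (0.04 to 0.18; adjusted p = 0.0071) and Mir127 at 0.10 (0.08 to 0.13; adjusted p = 2.8e-14), all by the exact binomial test. The intervals of Mir433 (0.08), Mir665 (-0.01), Mir770 (-0.19) and Mir493 (-0.18) included 0. These intervals hold counting noise only, whereas the spread that edgeR estimated between the libraries was 11.4% of a gene's level. The scaling matters at this size: by total counts the median of all detected genes shifted to -0.13, and Mir127 and Mir433 then stood at -0.0013 and -0.02, while Mir431 (0.30) and Mir434 (0.23) kept their sign. Mir770 and Mir493 stood at -0.29 each by total counts, nearly as far from 0 as Mir431 and farther than Mir434, on 242 and 85 counts in pup 2. Their exact 95% intervals by total counts were wide, -0.55 to -0.03 for Mir770 and -0.73 to 0.16 for Mir493, which included 0. That of Mir431 was 0.25 to 0.34. Relative to Mir127 in the same library, which needs no scaling, Mir431 stood at 0.379 in pup 1 and 0.309 in pup 2, and Mir434 at 0.225 and 0.192. Mir337 stood at 0.131 of Mir127 in pup 1 and 0.13 in pup 2. Mir770 and Mir493 ran the other way, at 0.00908 and 0.00319 of Mir127 in pup 1 and 0.0111 and 0.00389 in pup 2. On the log2 scale these changes relative to Mir127 were 0.30 for Mir431, 0.23 for Mir434 and -0.29 for both Mir770 and Mir493.

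**Figure D4:**
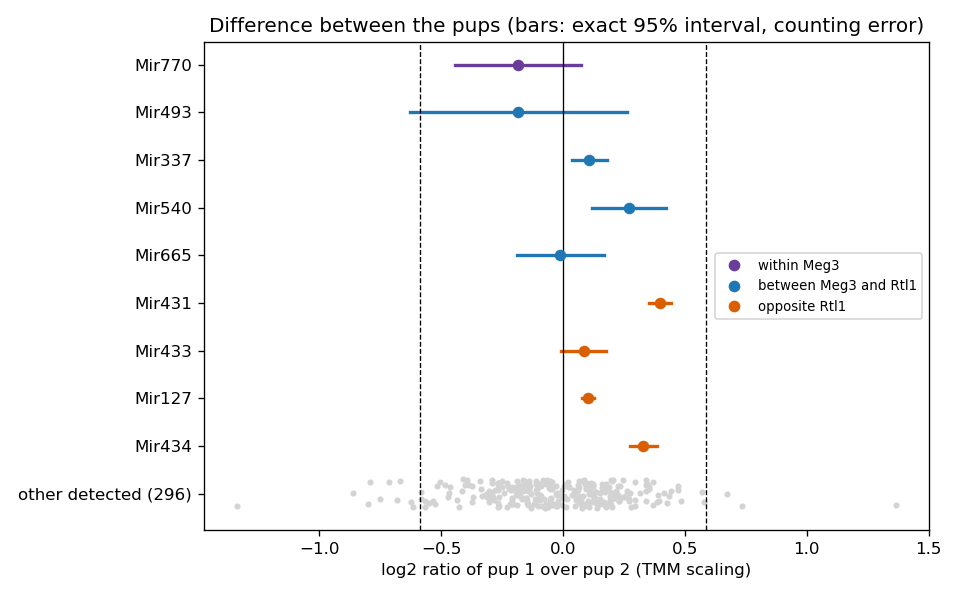
Log2 ratio of pup 1 over pup 2 for each gene (points) with its exact 95% counting interval (bars), the other 296 detected genes in grey, and dashed lines at a ratio of 1.5 in either direction. None of the 9 genes reaches a dashed line with its point, and Mir431 lies farthest to the right at 0.40.

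On the log2 scale the median of pup 1 over pup 2 was 0.10 for the 9 genes, 0.14 for the 34 other detected genes of the region and -0.02 for all detected genes. By value 6 of the 9, 25 of the 34 and 145 of the 305 were above 0. By total counts every gene shifts down by the same amount, to a median of -0.13 over all detected genes. The number above 0 was then 4 of the 9, while their place among all genes did not change.

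Reads on the strand opposite to the annotated gene were nearly absent. Over the 9 genes they made up 0.0208% of reads in pup 1 (11 of 52956) and 0.0155% in pup 2 (6 of 38791), and all of them fell on Mir337. The share over all genes was 2.26% and 2.15%, but 5 records held 84.5% of those reads in pup 1 and 84.3% in pup 2. Of 315 miRNA genes with at least 10 reads on both strands together in each library, 5.71% had an opposite-strand read in both pups, so that few or no such reads is usual here. The other 8 genes had 0, which for Mir127 allows a share of up to 0.0106% in pup 1 and 0.0137% in pup 2.

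The libraries carried the marks of stomach tissue. Own-strand counts summed to 4463355 in pup 1 and 3454655 in pup 2. The smooth muscle pair Mir143 and Mir145a held 24.8% ± 1.21 of them, the squamous epithelial genes Mir203, Mir205 and Mir31 held 11.4% ± 0.349, and the glandular genes Mir192, Mir194-1, Mir194-2 and Mir215 held 0.792% ± 0.0330. Endothelial Mir126a held 3.50% and neural genes 0.143% ± 0.0170. Of the 5 genes on the neural list 4 were analysed and 2 detected, Mir137 (1220 ± 176 CPM) and Mir132 (208 ± 7.07 CPM). In whole tissue, fewer cells of a type and less RNA per cell cannot be told apart, and which cells the imprinted miRNAs came from was not tested. Of the 11 marker lists, 6 took the larger share in pup 1 by value and 5 in pup 2. Smooth muscle stood at 25.6% in pup 1 against 23.9% in pup 2, through Mir143, since Mir145a ran the other way (5547 against 5860 CPM). Endothelial (3.56% against 3.44%), glandular (0.816% against 0.769%), endocrine (0.768% against 0.715%), leukocyte (0.0481% against 0.0459%) and erythroid markers (0.00397% against 0.00347%) were also higher in pup 1. Within the glandular list Mir194-1 (445 against 552 CPM) and Mir194-2 (780 against 1086 CPM) ran the other way. Squamous (11.2% against 11.7%), general epithelial (6.11% against 6.60%), neural (0.131% against 0.155%), striated muscle (0.0180% against 0.0367%) and hepatocyte markers (0.0205% against 0.0255%) were higher in pup 2. Against their lists, general epithelial Mir429 (30024 against 29619 CPM) and neural Mir132 (213 against 203 CPM) were higher in pup 1. The part of these lists in the differences between pups was not tested.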

How the data were processed

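Small RNA libraries from 2 newborn stomachs were analysed. The authors deposited raw read counts per miRNA gene, without a header or normalization. Per the description files, reads were placed on mm10 and counted over genes of release M4. How adapters were trimmed and which aligner and counter were used is not given in the sources used here. Counts came from the strand column with the larger total (97.7% and 97.8% of gene counts). Rows naming no gene stayed out of the totals: 8.70% and 8.94% of reads were unmapped, 26.0% and 25.7% mapped to several places, and 1.78% and 1.70% fell outside miRNA genes.

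Names and positions came from GENCODE M21 (GRCm38), which matched 1894 of 1973 identifiers, and sequences from RefSeq (GRCm38.p6), which held all 9 genes. CPM is own-strand counts per 1000000 own-strand counts. Detection required 10 counts in each library, and the floor is 3 counts. Intervals are exact (Clopper-Pearson, 95%) and, like floors, cover counting error only, since reads copied by PCR were not tied to single molecules. With 1 library per pup edgeR's quasi-likelihood test could not be fitted, so an exact binomial test across all detected genes was used. On simulated counts for this comparison (293 genes), it called 92.7% of genes changed 2-fold, 100% of those changed 4-fold and 0% of unchanged genes, with counting noise only. Tools were edgeR 4.0.16, DESeq2 1.42.0 (size factors only), R 4.3.3, Python 3.11.15, scipy 1.17.1 and RNAfold 2.7.2.

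The members and lists were chosen with earlier results of these data known. The genes named are the 9 members, the other region genes lying among them or over Rtl1, the 4 highest others of the region, the neighbours in level of the highest and the median member, the 3 genes nearest in level to the highest, and genes that share a seed or stretch. Named outside this rule are Mir6915, Mir1906-1, Mir136, Mir3544 and the marker genes. Alternatives were other scalings, both strands, totals without Mir143, other count minimums, no minimum ratio, edgeR's exact test, and leaving out genes or a pup.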

Additional observations from a re-analysis of the deposited data

Results flagged for a closer look

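Mir337 was the 1 gene of the 9 with reads on the opposite strand, 11 in pup 1 and 6 in pup 2, above the limit of 3 counts that a count of 0 allows. They made up 0.297% of its reads in pup 1 and 0.210% in pup 2, with exact 95% intervals of 0.148% to 0.531% and 0.0772% to 0.457%. Of 315 miRNA genes with at least 10 reads on both strands together in each library, 18 (5.71%) had an opposite-strand read in both pups. RefSeq places another miRNA gene, Mir3544, on the minus strand inside the Mir337 hairpin (chr12:109585813-109585873). No gene in the deposited counts carried this name, so Mir3544 had no level of its own here. Its mature sequences, with the seed in capitals, show what such reads could be compared with.
miR-3544-5p: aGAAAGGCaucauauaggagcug
miR-3544-3p: aCUCCUGCaugacgccguuccc
The tables give no read sequences or positions within a gene, so whether the 17 reads match Mir3544 was not tested.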

How the results depend on the processing

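With the total taken without Mir143, the 9 genes held 1.52% and their median level was 656 CPM, since all levels rise together, and with both strands counted the median was 486 CPM. Without Mir127 the genes opposite Rtl1 exceeded those between Meg3 and Rtl1 by 1.78 on the log2 scale, and opposite-strand reads made up 0.0399% of the remainder. The log2 difference from the other region genes was -1.36 with both strands, -2.44 without Mir127, -0.51 without sequence-sharing genes and, in alternatives chosen after seeing the data, -1.58 with opposite-strand reads credited and -0.82 without Mir411. Calls between pups over all genes numbered 9, 16 with total scaling, 159 with no minimum ratio, 1 with edgeR's exact test and, chosen after seeing the data, 146 with total scaling and no minimum ratio. With no minimum ratio 5 of the 9 were called, 2 when total scaling was used as well, and 0 under the other settings run. Signs turned for Mir127 (-0.0013) and Mir433 (-0.019) with total scaling, with or without a minimum ratio, and for Mir665 with DESeq2 size factors (0.014) and with no count minimum (0.015), all uncalled. From either pup alone the 9 genes held 1.12% to 1.19%, and the order by level was the same, as it was per nucleotide of hairpin. At a minimum of 100 counts 8 of the 9 were detected. No paired analysis was possible because the series has 1 group. Depth limits Mir493 most, at 85 counts in pup 2.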

Other observations

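The hairpins of the 9 genes were predicted to fold more stably, in the median, than mouse miRNA hairpins at large. Their predicted minimum free energy (RNAfold, default settings) had a median of -44.2 kcal/mol, against -32 kcal/mol over 1005 mouse hairpins of the RefSeq table, and ran from -35.1 for Mir127 to -58.2 for Mir770. Per nucleotide the median was -0.501 against -0.406. The 9 hairpins had a median length of 94 nt against 79 nt and a median GC content of 56.5% against 51.7%, and the part of length and composition in this difference was not tested. Mir770, with a GC content of 70.2%, was among the 3.48% of hairpins most stable per nucleotide, while Mir433 (-0.361), the longest of the 9 at 124 nt, and Mir434 (-0.398) were less stable per nucleotide than the median of all hairpins. The most abundant gene, Mir127, had the least stable hairpin of the 9 in total, and the most stable, Mir770, was the second lowest in level. Per nucleotide Mir127, at 70 nt, stood at -0.501, the median of the 9, and 15.8% of all hairpins were at least as stable. These values describe sequence, and no relation to level was tested.

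Both arms of Mir431 and of Mir434 carry a repeated stretch. The 5p and 3p sequences of Mir431 share GUCUUGCAGG (10 nt), and those of Mir434 share UUUGAACCA (9 nt). The median longest stretch shared by the arms was 4 nt over 644 mouse hairpins with 2 listed arms, and 1.40% of them had 9 nt or more. In the other 7 genes the arms shared 3 to 6 nt. The seeds of miR-431-5p and miR-434-3p lie wholly inside these stretches, and that of miR-431-3p in part. With TMM scaling Mir431 and Mir434 were also the genes of the 9 with the largest log2 ratio of pup 1 over pup 2, 0.40 and 0.33. By total counts they stood at 0.30 and 0.23, and Mir770 and Mir493 at -0.29 each. This coincidence was noticed in the data, and no test bears on it.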
